A study of Rattus norvegicus with 8 samples.

Results

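The immunoproteasome and peptide loading genes were followed in adipose-derived stem cells (ASCs) of LEW and PVG rats. The set held 10 genes of the 13337 with a probe on the Illumina RatRef-12 array: the catalytic subunits Psmb8, Psmb9 and Psmb10, the activator subunits Psme1 and Psme2, the transporter genes Tap1 and Tap2, and the loading genes Tapbp, Calr and Pdia3. They were picked by gene symbol, as a pathway, and matched 11 probes of 22523. Psmb10 had 2 probes, and the brightest probe stood for each gene. The 8 arrays covered 4 groups: LEW with PBS as the control, LEW with LPS, PVG with PBS, and PVG with LPS, each harvested at 24 h and at 48 h. LPS, the bacterial endotoxin sensed through TLR4, was given at 1 µg/ml. LEW (Lewis/Jms) is the strain with acute rejection in the study's transplant model, and PVG (Piebald Virol Glaxo) the strain with spontaneous tolerance. The animals were 8 weeks old, and RNA of 3 rats was pooled for each array. The fat was taken from inguinal and interscapular depots. The cells of the same 3 rats of a strain were divided over its 4 conditions, so a strain difference rested on 3 animals per strain, and its p-value measured the spread between arrays, not between rats. The strains also carry different haplotypes of RT1, the rat MHC, where several of these genes lie. A base change under a probe and a difference in transcript level cannot be told apart for those genes.

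The proteasome is a barrel of stacked rings that cuts cytosolic proteins into peptides. In cells that receive interferon, and in many immune cells without it, newly made barrels carry Psmb8 (beta5i), Psmb9 (beta1i) and Psmb10 (beta2i) in place of the standard catalytic subunits Psmb5, Psmb6 and Psmb7. Psme1 and Psme2 form the PA28 cap, which opens the barrel and speeds the release of peptides. The transporter of Tap1 and Tap2 carries the peptides into the endoplasmic reticulum. There tapasin (Tapbp), calreticulin (Calr) and the disulphide isomerase ERp57 (Pdia3) hold the class I molecule until a peptide has bound. Mesenchymal stem cells display class I and raise it when interferon is present.

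Many of these genes are known interferon targets in human and mouse cells, so the rat promoters were searched for the core of the interferon-stimulated response element (ISRE), GAAANNGAAA, on both strands. Promoters are from RefSeq on GRCr8, the reference genome and not that of LEW or PVG, from 250 bases before the start to 50 bases after it, and 9 of the 10 genes matched. Of these, 6 held an ISRE core (Psmb8, Psmb10, Psme2, Tap1, Tap2 and Tapbp), against 3.92% of 33469 promoters of 300 bases. The motifs of GAS (TTCNNNGAA) and kappaB (GGGNNTTTCC), also on both strands, were found in 8.87% and 1.53% of all promoters. Among the 9 genes, GAS occurred in Psmb8, and kappaB in Tap1 and Tapbp. The whole windows of Psmb8, Tap1 and Tapbp, the genes whose strain call held without any 1 array, are shown, with that of Psmb9, which has no ISRE core in its window. Psmb9 and Tap1 lie head to head, and their windows share 44 bases. For Psmb10, Psme2 and Tap2 only the stretch around the match is given. Capitals mark the ISRE core, which is a match of letters and not a measured binding site.
Psmb8 promoter, chr20:4656982-4657281, minus strand: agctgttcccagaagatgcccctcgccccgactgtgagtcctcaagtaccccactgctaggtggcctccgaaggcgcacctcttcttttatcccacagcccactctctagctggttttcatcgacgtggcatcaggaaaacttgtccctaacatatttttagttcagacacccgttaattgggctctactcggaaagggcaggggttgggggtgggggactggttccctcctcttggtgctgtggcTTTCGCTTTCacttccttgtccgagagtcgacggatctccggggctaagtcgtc
Tap1 promoter, chr20:4668494-4668793, minus strand: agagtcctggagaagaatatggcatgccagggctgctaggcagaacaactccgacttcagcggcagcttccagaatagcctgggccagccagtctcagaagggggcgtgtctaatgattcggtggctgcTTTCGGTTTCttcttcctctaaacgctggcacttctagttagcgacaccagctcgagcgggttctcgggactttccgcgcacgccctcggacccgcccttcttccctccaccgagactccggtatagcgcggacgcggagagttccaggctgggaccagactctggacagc
Psmb9 promoter, chr20:4668750-4669049, plus strand: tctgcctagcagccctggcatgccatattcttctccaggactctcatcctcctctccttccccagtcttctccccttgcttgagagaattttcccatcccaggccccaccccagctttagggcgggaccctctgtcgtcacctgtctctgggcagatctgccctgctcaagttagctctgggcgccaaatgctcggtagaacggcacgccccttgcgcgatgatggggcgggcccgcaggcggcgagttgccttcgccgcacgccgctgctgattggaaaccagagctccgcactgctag
Tapbp promoter, chr20:4967828-4968127, minus strand: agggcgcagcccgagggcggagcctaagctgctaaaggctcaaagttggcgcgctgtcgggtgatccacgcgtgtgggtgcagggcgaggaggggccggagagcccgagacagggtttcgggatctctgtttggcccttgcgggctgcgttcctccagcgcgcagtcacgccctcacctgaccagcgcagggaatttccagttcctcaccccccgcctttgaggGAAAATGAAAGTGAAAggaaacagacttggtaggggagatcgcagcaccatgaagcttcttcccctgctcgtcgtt
Psmb10 window, chr19:50743285-50743380, minus strand: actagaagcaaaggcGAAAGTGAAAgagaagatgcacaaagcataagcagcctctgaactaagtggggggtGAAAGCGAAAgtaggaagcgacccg
Psme2 window, chr15:33052780-33052819, minus strand: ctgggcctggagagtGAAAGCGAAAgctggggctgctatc
Tap2 window, chr20:4652313-4652352, minus strand: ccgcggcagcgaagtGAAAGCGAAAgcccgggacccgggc
The matches of Tapbp overlap each other, and those of Psmb10 lie apart from each other.

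Signals are given on a linear scale, after each array was brought to the same 75th percentile. Detection refers to a p under 0.05 against the negative controls of the array. In all, 10 of the 11 probes were detected on all 8 arrays. The exception was Psmb9, which was undetected on all 4 LEW arrays (detection p 0.244 to 0.581) and on the PVG control array at 48 h (0.0533). All 11 passed the filter for dim probes, Psmb9 through PVG alone, among 9552 probes in all. Precision is limited by the small number of arrays. The cells looked mesenchymal by their markers, since all 8 arrays detected 7 of 7 MSC and fibroblast genes that had a probe. Of these 7, 2 were higher in PVG in limma, against 7.45% of all tested probes (14.9% in either direction). These were Itgb1 (0.82, adjusted p = 0.00026) and Nt5e (0.57, 0.0455). Pdgfra was lower (-1.21, adjusted p = 0.019), so the strains were not alike in these markers. Of 17 leukocyte and macrophage genes with a probe, 11 were undetected on every array, Ptprc (CD45) and Cd74 among them. Cd14 was detected on all 8 arrays, and Itgam and Aif1 on 3 each. Cd14 averaged 237 in LEW control, 403 in LEW LPS, 228 in PVG control and 334 in PVG LPS. The summed scaled signal of the 17 genes was 1352 to 1391 in LEW control, 1494 to 1616 in LEW LPS, 1288 to 1443 in PVG control and 1484 to 1529 in PVG LPS. Apart from Cd14, the group means of these genes were near or below the lowest signals detected per array (75 to 87). Most of the sum was thus background, and it cannot compare the content of other cells. In this list 3 genes were tested, none passed between the strains in limma, and the part of other cells in the results was not tested. In pooled RNA, more cells that express a gene and more RNA per cell cannot be told apart.

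Psmb8, which carries the chymotrypsin-like activity of the immunoproteasome, differed most. In LEW its scaled signal was 205 at 24 h and 226 at 48 h in control cells, and 183 and 154 with LPS. In PVG it was 1698 and 1309 in control cells, and 1764 and 1241 with LPS. The lowest PVG array thus stood 5.49 times above the highest LEW array. The geometric means were 190.1 in LEW and 1485 in PVG (n = 4 arrays each, SD 0.24 and 0.26 on the log2 scale). The log2 difference was 2.97 ± 0.139 (SE), or 7.81-fold (limma, Benjamini-Hochberg adjusted p = 7.67e-06), the 7th largest in favour of PVG among the 9552 probes. At matched treatment and time the ratio was 8.30 and 5.79 in control cells at 24 h and 48 h, and 9.65 and 8.04 with LPS.

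**Figure D1:**
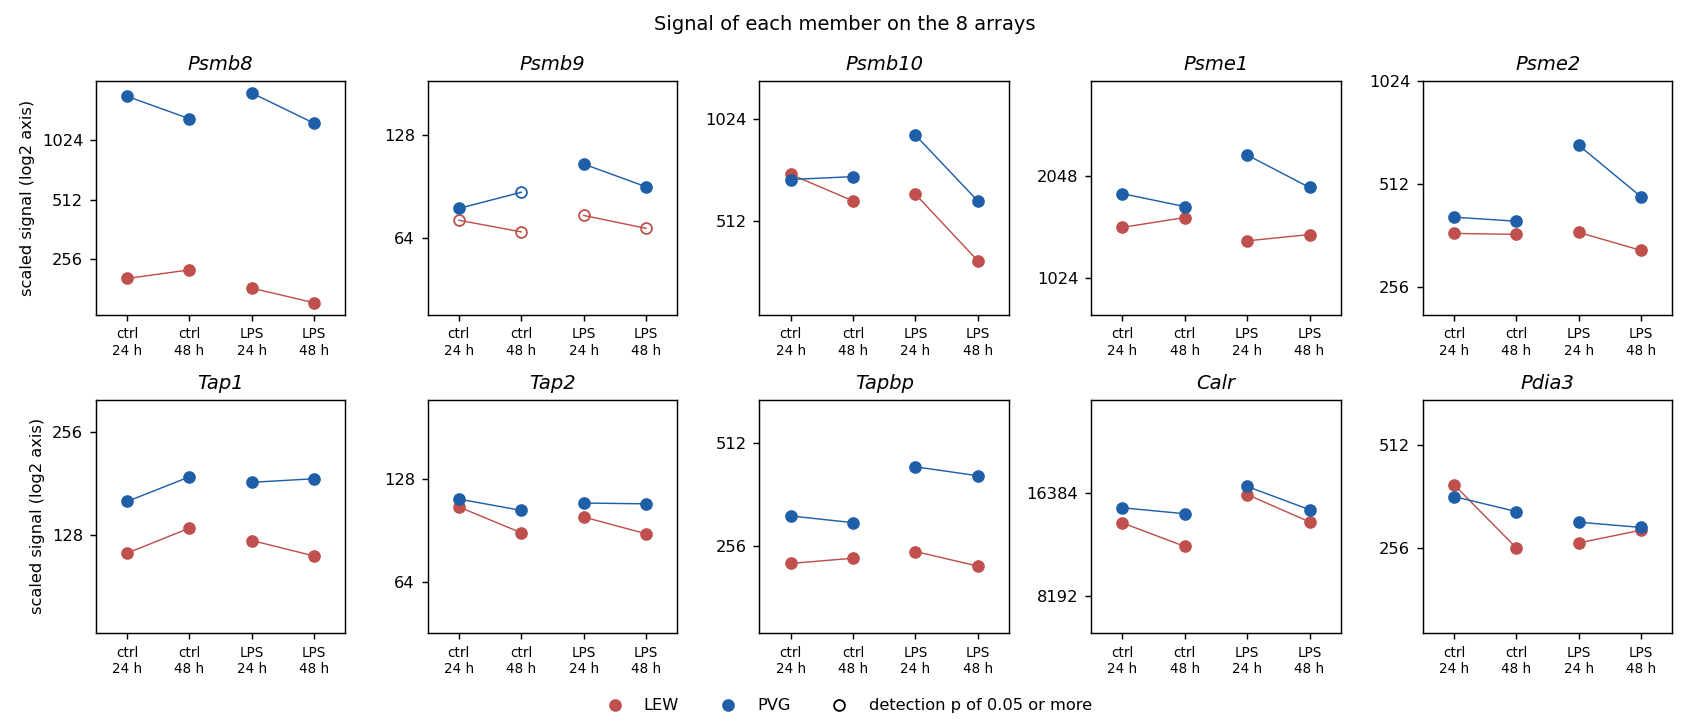
Scaled signal of each gene on the 8 arrays (log2 axis; red LEW, blue PVG; x axis treatment and time; lines join the 2 arrays of a group; open points have a detection p of 0.05 or more). The 4 PVG points of Psmb8 lie between 1241 and 1764 and the LEW points between 154 and 226, while the strains overlap for Psmb10, Tap2, Calr and Pdia3.

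Psmb9, which cuts after hydrophobic residues where Psmb6 cuts after acidic ones, sat at the background in LEW. Its scaled signal there was 72.0 and 66.6 in control cells at 24 h and 48 h, and 74.4 and 68.2 with LPS. The PVG arrays gave 78.0 and 87.0 in control cells, and 105 and 90.3 with LPS. The fit gave a log2 difference of 0.35 ± 0.0921 (adjusted p = 0.0351). As LEW was undetected, the fold cannot be given. With each LEW array set to the lowest signal detected on it, the PVG mean was 1.07-fold higher. This is not a strict bound, since PVG control was itself undetected at 48 h. At 24 h the 78.0 of PVG control lay below the 81.2 set for LEW control.

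Psmb10, which carries the trypsin-like activity, overlapped between the strains. Its scaled signal was 704 and 588 in LEW control at 24 h and 48 h, and 616 and 393 in LEW LPS. In PVG it was 679.5 and 693 in control cells, and 917 and 588 with LPS. The log2 difference of 0.34 ± 0.177 did not pass (adjusted p = 0.266), and the dimmer probe gave 0.35 (adjusted p = 0.25).

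The standard subunits that these replace were then set beside them. Psmb5 had mean signals of 3032 in LEW control, 3102 in LEW LPS, 3245 in PVG control and 3159 in PVG LPS. None of the 3 passed between the strains in limma: the log2 difference was 0.06 for Psmb5 (adjusted p = 0.76), 0.36 for Psmb6 (0.072) and 0.31 for Psmb7 (0.13). Whether the strain difference of an immunosubunit exceeded that of the subunit it replaces was not tested.

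Both PA28 genes were higher in PVG over all arrays. Psme1, the alpha subunit, had 1444 and 1544 in LEW control at 24 h and 48 h, and 1319 and 1377 in LEW LPS. In PVG its scaled signal was 1813 and 1662 in control cells, and 2354 and 1890.5 with LPS. The strains did not overlap, and the log2 difference was 0.43 ± 0.0961 (adjusted p = 0.0175). Psme2, the beta subunit, gave 366.5 and 364 in LEW control, and 369 and 327 in LEW LPS. In PVG it gave 409 and 398 in control cells, and 663 and 469 with LPS. All 4 PVG arrays again stood above all LEW arrays (0.41 ± 0.117, adjusted p = 0.0473), by 1.08-fold at the closest pair for either gene.

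The genes of the transporter differed in their calls. Tap1 had scaled signals of 113 and 134 in LEW control at 24 h and 48 h, and 123 and 111 in LEW LPS. In PVG they were 161 and 189.6 in control cells, and 183 and 187 with LPS. The log2 difference of 0.58 ± 0.098 passed (adjusted p = 0.00493), and the lowest PVG array stood 1.2 times above the highest LEW array. Tap2, which in rats occurs in allelic forms that differ in the peptides they carry, had 106 and 89.2 in LEW control, and 99.2 and 88.6 in LEW LPS. In PVG it had 112 and 104 in control cells, and 109 and 108 with LPS, so the strains overlapped. Its log2 difference of 0.18 ± 0.0921 did not pass (adjusted p = 0.248). Whether the strain difference of Tap1 exceeded that of Tap2 was not tested.

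Among the loading genes Tapbp passed and Calr and Pdia3 did not. Tapbp, the bridge between the class I molecule and the transporter, had scaled signals of 228 and 236 in LEW control at 24 h and 48 h, and 247 and 224 in LEW LPS. In PVG they were 314 and 300.2 in control cells, and 437 and 412 with LPS. The log2 difference was 0.63 ± 0.0807, or 1.55-fold (adjusted p = 0.00118). Calr, a lectin-like chaperone that also serves other glycoproteins, was bright on every array, from 11434 to 16228 in LEW and from 14255 to 17139 in PVG (0.17, adjusted p = 0.353). Pdia3 ranged from 256 to 392 in LEW and from 294 to 362 in PVG (0.12, adjusted p = 0.657).

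As counts, 6 of the 10 genes passed with PVG higher and 0 with LEW higher, or 5 of 9 without Psmb9, which entered the test through PVG alone. Of all tested probes 7.45% passed with PVG higher and 14.9% in either direction. The same 6 genes had 4 PVG arrays above the 4 LEW arrays, against 9.33% of all probes. Here too it was 5 of 9 without Psmb9, which was undetected in LEW and 1.05-fold apart at the closest pair. The fitted difference was above 0 for all 10 genes, with a median of 0.38 against -0.0051 for all probes. The calls of Psmb8, Tap1 and Tapbp held without any 1 of the 8 arrays (log2 difference 2.84 to 3.09, 0.52 to 0.64 and 0.59 to 0.66). Without the LEW control 24 h, the PVG control 24 h or the PVG LPS 24 h array, only these 3 passed.

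At low signal the background compresses a fold. After background correction the log2 difference was 0.92 for Tap1, 0.65 for Psmb9 and 0.39 for Tap2, against 0.58, 0.35 and 0.18 as scaled, and Tap2 still did not pass (adjusted p = 0.144). Psme2 then missed the threshold (0.46, adjusted p = 0.0663). For Psmb9 neither value is an estimate of the fold, since it was undetected in LEW.

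Without LPS, 1 of the 10 genes passed between the strains, against 3.63% of all probes with PVG higher. This was Psmb8, with a log2 difference of 2.79 ± 0.197 (adjusted p = 0.000148). Tap1 (0.50, adjusted p = 0.0719) and Tapbp (0.40, adjusted p = 0.0779) came next. With the time point as a block they passed too (adjusted p = 0.0318 and 0.0428), which made 3 of 10, against 6.61% of all probes with PVG higher.

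With LPS, 5 genes passed with PVG higher, against 2.93% of all probes. Their log2 differences were 3.14 for Psmb8 (adjusted p = 8.9e-05), 0.85 for Tapbp (0.00338), 0.68 for Psme2 (0.0475), 0.66 for Tap1 (0.0279) and 0.65 for Psme1 (0.0279). The median over the 10 genes was 0.61 with LPS and 0.23 without it. With the time point as a block 7 genes passed, Psmb9 (adjusted p = 0.0422) and Psmb10 (0.048) among them, against 5.9% of all probes. Psmb9 entered the test through the PVG LPS arrays alone, the higher group here, so its call cannot count as evidence of a strain difference. Without either PVG control array 3 passed, and without the PVG LPS 24 h or the LEW LPS 48 h array 2 passed. Without the LEW LPS 24 h array Psmb10 passed, at 0.90 (adjusted p = 0.044).

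**Figure D2:**
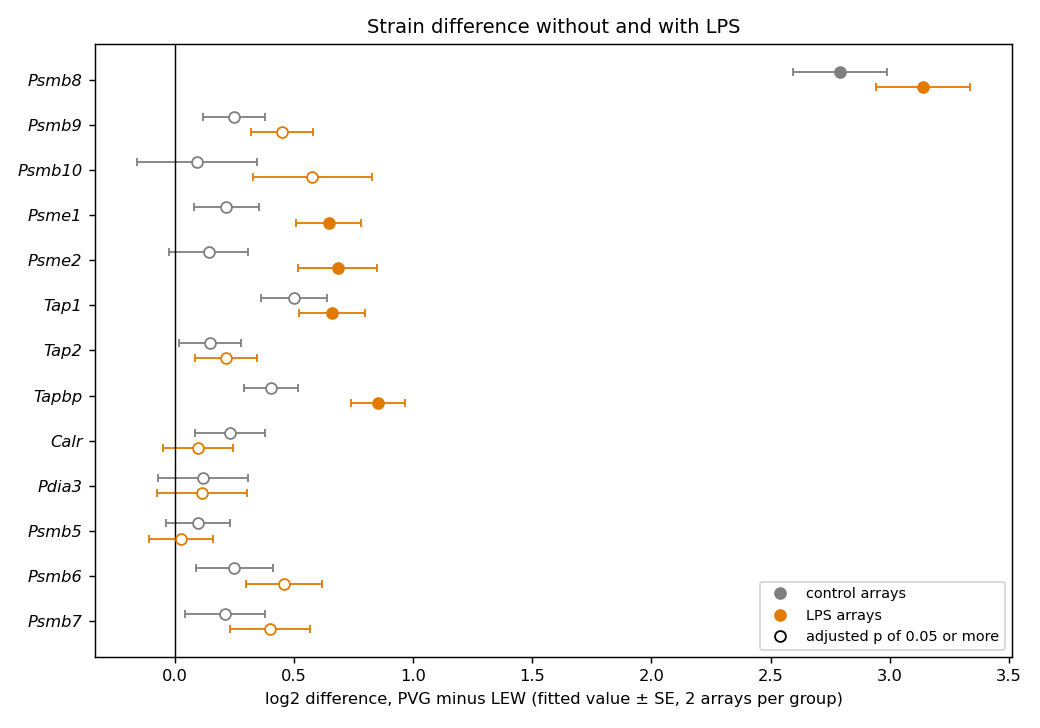
Log2 difference of PVG minus LEW (x axis, fitted value ± SE, 2 arrays per group) for each gene and the 3 standard subunits, on control arrays (grey) and LPS arrays (orange); filled points passed at an adjusted p under 0.05. Psmb8 stands at 2.79 and 3.14, and 5 orange points and 1 grey point are filled.

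No gene of the set passed for LPS. Shares of all probes are given at an adjusted p under 0.05, and none was counted at an unadjusted p. Over both strains 0 of the 10 passed in limma (2.26% of all probes in either direction), with 1 at an unadjusted p under 0.05 and 0 in the unmoderated fit. In LEW 0 passed (0.649% of all probes), with 0 at an unadjusted p under 0.05. In PVG 0 passed (0.314% of all probes), with 2 at an unadjusted p under 0.05, and the unmoderated fit passed 0 in either strain. Those 2 were Tapbp, at 0.47 ± 0.114 (1.38-fold, adjusted p = 0.201), and Psme2, also at 0.47 with an SE of 0.166 (adjusted p = 0.506). In PVG 5 genes had the higher signal with LPS at both times (Psmb9, Psme1, Psme2, Tapbp and Calr) and 1 the lower (Pdia3). In LEW 2 were higher at both times (Psmb9 and Calr) and 4 lower (Psmb8, Psmb10, Psme1 and Tap2). Psmb9 was undetected on all LEW arrays and on the PVG control array at 48 h, so its direction cannot be read. The share of all probes with the same direction at both times was not counted. Psmb8 itself was at -0.36 ± 0.197 in LEW (adjusted p = 0.669) and at -0.01 ± 0.197 in PVG (0.991).

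The difference between the strains in the LPS response was tested as an interaction. None of the 10 passed in limma, against 0.0314% of all probes, and none in the unmoderated fit. At an unadjusted p under 0.05 there were 2, Tapbp (0.45 ± 0.161) and Psme2 (0.54 ± 0.234), both with an adjusted p of 0.999. The share of all probes at that unadjusted threshold was not counted. For Tapbp the LPS response in PVG was 0.48 at 24 h and 0.46 at 48 h, and in LEW 0.12 and -0.08. For Psme2 it was 0.70 and 0.24 in PVG, and 0.01 and -0.16 in LEW.

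**Figure D3:**
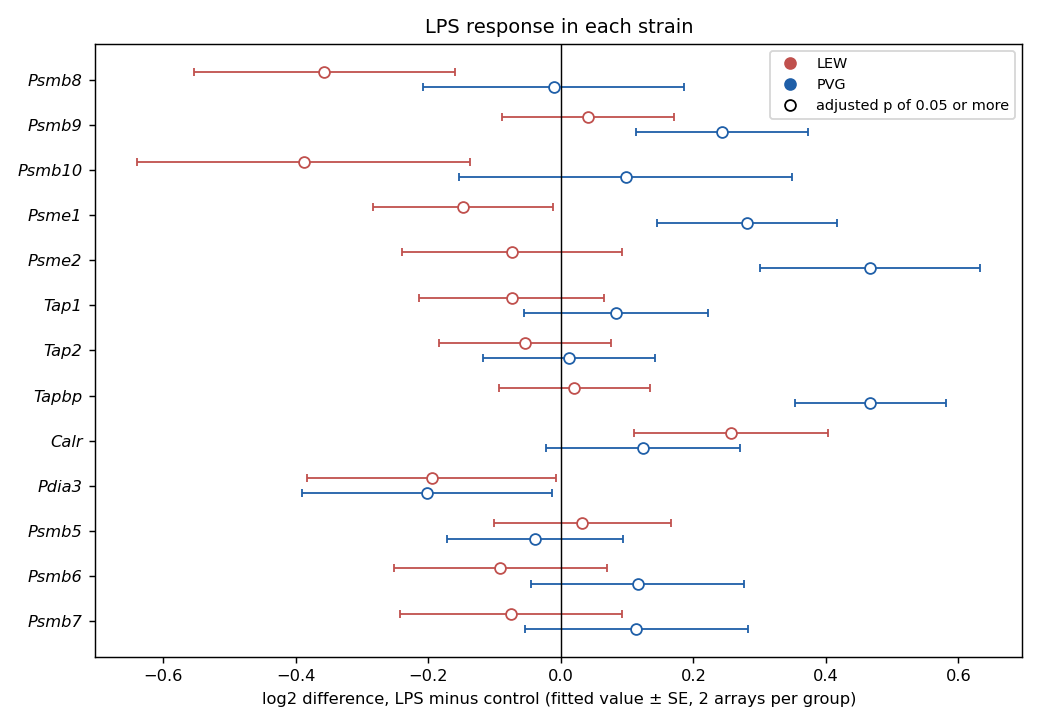
Log2 difference of LPS minus control (x axis, fitted value ± SE, 2 arrays per group) in LEW (red) and PVG (blue) for each gene and the 3 standard subunits. All points are open, since none reached an adjusted p under 0.05, and the 2 highest PVG points are those of Tapbp and Psme2 at 0.47.

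The highest signals gathered on 1 array. For 7 of the 10 genes the highest of the 8 signals was that of PVG LPS at 24 h, an array that held the highest signal of 8.14% of all tested probes. These were all 3 catalytic subunits, both PA28 genes, Tapbp and Calr. The lowest signal was that of LEW LPS at 48 h for 6 genes (Psmb8, Psmb10, Psme2, Tap1, Tap2 and Tapbp), against 19.5% of all tested probes.

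Between 48 h and 24 h none of the 10 genes passed in limma, against 3.93% of all probes, and none in the unmoderated fit. At an unadjusted p under 0.05 in limma there were 3 (Psmb8, Psmb10 and Calr). The share of all probes at that unadjusted threshold was not counted. The fitted difference of 48 h minus 24 h was below 0 for 9 genes and above 0 for Tap1 (0.09, adjusted p = 0.659). Psmb10 had -0.38 ± 0.118 (adjusted p = 0.119), made up of -0.65 and -0.64 in LPS-treated LEW and PVG and of -0.26 and 0.03 in control LEW and PVG. With no filter on dim probes its adjusted p was 0.0235.

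Tap2, Psmb8, Tap1 and Psmb9 are neighbours, in this order, in the class II region of RT1 on chromosome 20 (gene order of GRCr8), and Tapbp lies further along the same chromosome. Of these 5 genes 4 passed with PVG higher, Psmb9 among them through PVG alone, against 7.45% of all probes, with a median log2 difference of 0.58. Psme1 and Psme2 lie on chromosome 15, Psmb10 and Calr on chromosome 19 and Pdia3 on chromosome 3. Of these 5 genes 2 passed, with a median of 0.34 and a highest value of 0.43. Whether the 2 groups of genes differ was not tested.

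The genes that start within 250000 bases of Psmb8 showed that the difference did not run evenly along the region. Of 26 genes 22 had a probe and 15 were tested, 11 of them outside the set. Of these 11, 3 were higher in PVG, against 7.45% of all tested probes, 1 was lower, and the median was 0.06. Among the 3, RT1-A2 and RT1-Db1 were undetected on all LEW arrays and entered the test through PVG alone. On the far side of Psmb9, RT1-DMb was at 0.06 (adjusted p = 0.718), RT1-DMa, part of the class II peptide editor, at -0.29 (0.0391), and Brd2, a chromatin reader, at 0.11 (0.479). The class I heavy chain genes RT1-A3 and RT1-A2 lay at the end of the stretch. RT1-A3 averaged 189 in LEW and 766 in PVG. RT1-A2 averaged 67.1 and 438, was undetected on all LEW arrays and had a signal at least 5.23-fold higher in PVG. The class II gene RT1-Db1 was also undetected in LEW, was detected on 3 PVG arrays, and had 72.9 and 95.8. Against the lowest detected signals its PVG mean was 1.14-fold higher, which is not a strict bound. For these RT1 genes a base change under a probe and a difference in transcript level cannot be told apart.

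**Figure D4:**
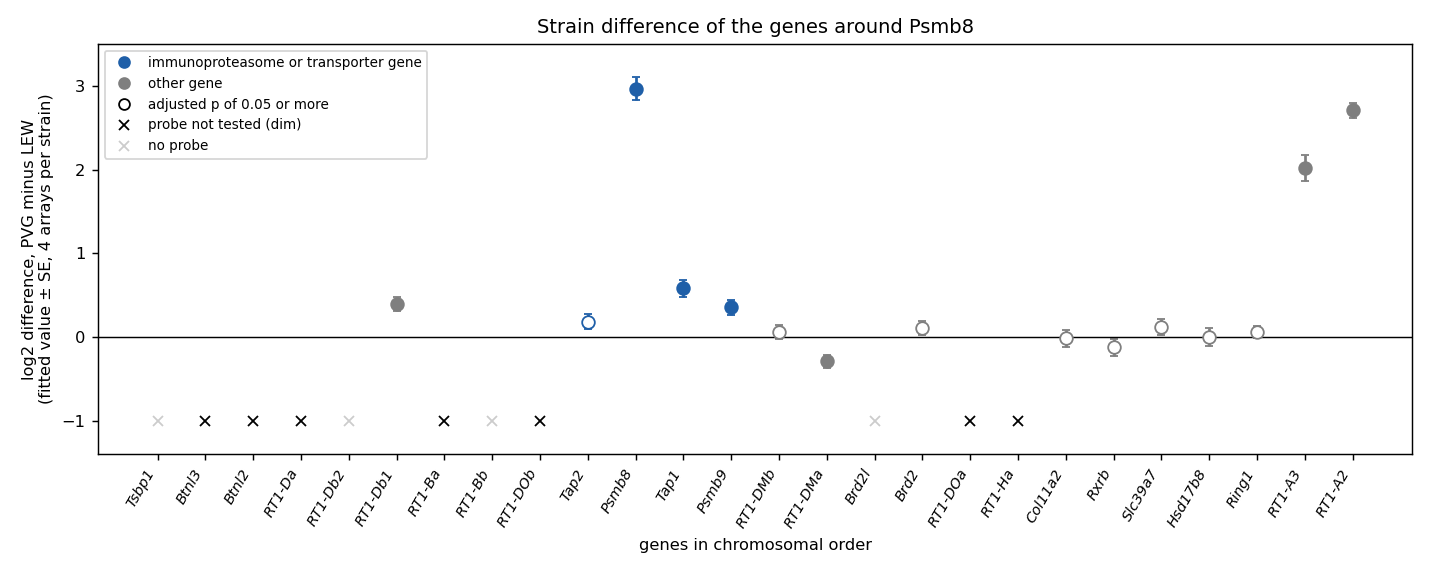
Log2 difference of PVG minus LEW (y axis, fitted value ± SE, 4 arrays per strain) for the genes around Psmb8 in chromosomal order (x axis); blue points belong to the set, filled points passed at an adjusted p under 0.05, and crosses mark genes not tested. Psmb8 at 2.97 stands between Tap2 at 0.18 and Tap1 at 0.58.

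The rest of the proteasome showed few strain differences. Of all tested probes 7.45% passed with PVG higher and 14.9% in either direction. None of 11 other subunits of the 20S core barrel passed in limma (median 0.11). Of 17 subunits of the 19S regulator, which unfolds ubiquitin-tagged proteins, Psmc5 was higher in PVG (0.39, adjusted p = 0.0304) and Psmd5, detected on 5 of the 8 arrays, was lower (-1.07, adjusted p = 0.000751). None of 4 other activators and assembly factors passed, among them Pomp, the assembly chaperone (0.31, adjusted p = 0.186). Among 12 other chaperones and folding enzymes of the endoplasmic reticulum none was higher in PVG and 3 were lower: Sdf2l1 (-1.15, adjusted p = 0.000392), Erp29 (-0.58, 0.00719) and P4hb, a disulphide isomerase (-0.37, 0.0287). In the group for peptide trimming, 2 of 8 were higher (the peptidases Ide at 0.42 and Thop1 at 0.40) and 2 lower (Tapbpl, a tapasin relative, at -0.71, and the peptidase Nrdc at -0.35).

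**Figure D5:**
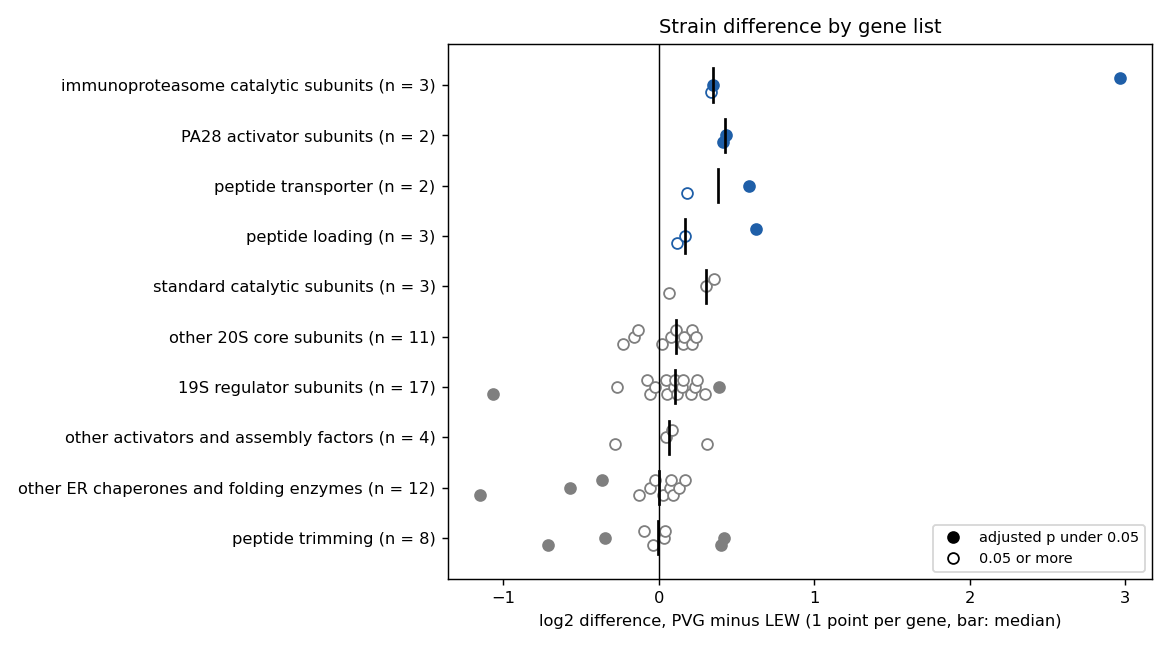
Log2 difference of PVG minus LEW (x axis) of each tested gene by list, with 1 point per gene and a bar at the median; blue points are the set, filled points passed at an adjusted p under 0.05. The point at 2.97 is Psmb8, and the medians of the 6 lists in grey lie between -0.0042 (peptide trimming) and 0.31 (standard catalytic subunits).

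The genes that receive the peptides and those that control the set went in both directions. Of all tested probes 7.45% passed with PVG higher and 14.9% in either direction. Of 13 tested class I heavy and light chain genes 4 were higher in PVG and 6 lower. Of the 4, 3 were undetected on all LEW arrays (RT1-A2, RT1-CE10 and RT1-CE16), and of the 6, 1 was undetected on all PVG arrays (RT1-CE5), so these entered the test through the strain in which they were higher. Among the 6, RT1-A1 averaged 1066 in LEW and 219.7 in PVG (-2.28, adjusted p = 4.78e-05). RT1-CE15, detected on 6 of the 8 arrays, averaged 305.5 and 83.3 (-1.87, adjusted p = 1.66e-05). For the RT1 genes too, a base change under a probe and a difference in transcript level cannot be told apart. B2m, the light chain of every class I molecule, had mean signals of 7734 in LEW control, 8938 in LEW LPS, 4826 in PVG control and 5851 in PVG LPS (-0.65, adjusted p = 0.00598). Of 9 regulators 3 were higher and 1 was lower. Irf1, a transcription factor of class I and immunoproteasome genes, had 258 in LEW control, 201 in LEW LPS, 348 in PVG control and 370.3 in PVG LPS (0.65, adjusted p = 0.00276). The receptor chain Ifngr2 (0.76, adjusted p = 0.00294) and the factor Irf7 (0.80, 0.0449) were also higher, while the kinase Jak2 was lower (-1.10, 0.00742). The interferon genes Ifng and Ifnb1 were undetected on all 8 arrays. Of 31 interferon-stimulated genes with a probe 15 were undetected on all arrays and 14 were tested. Of these, 3 were higher in PVG and 0 lower: Ifi44 (0.80, adjusted p = 0.00484), Ifi35 (0.42, 0.014) and Oasl2, undetected in LEW and at least 3.37-fold higher. Oasl2 entered the test through PVG alone.

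The genes most like Psmb8, Psmb9 and Tap1 over the 8 arrays were found by the root mean square (RMS) difference of log2 signals centred on each gene's mean. Nearest to Psmb8 were Lxn (RMS 0.242), Ptgis (0.321) and Des (0.341), all from outside the set, with means in LEW and PVG of 139 and 1108 for Lxn, 177 and 1213 for Ptgis, and 100.3 and 1143 for Des. Nearest to Tap1 were Aldh16a1 (0.0638), Slc3a1 (0.0704) and Ptpn6 (0.0725). Nearest to Psmb9 were Ogfod1 (0.0456), RT1-Db1 (0.0712) and Stip1 (0.0749), whose small distances go with the narrow range of Psmb9 itself (RMS 0.212 about its mean).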

How the data were processed

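Per the file headers, the authors deposited bead-summary signal intensities without background subtraction or normalization between arrays, for 8 Illumina RatRef-12 arrays of pooled RNA. Each probe also has a detection p-value, which the authors derived per array from the negative controls. A second table of normalized intensities that the authors deposited was used as an alternative. Arrays were brought to the same 75th percentile, with a floor of 16, before log2 was taken. Of 22523 probes, the 9552 whose detection p was under 0.05 on both arrays of 1 group or more were tested. Unscaled 75th percentiles ranged from 123 to 153, and 39.7% to 42.2% of probes were detected per array. In 1 limma fit (limma 3.58.1, R 4.3.3) each group had its 24 h and its 48 h array. This fit had no time term, and 48 h was compared with 24 h in a second fit of group means plus time. A call was an adjusted p under 0.05 (Benjamini-Hochberg over all tested probes). The procedure was tested on simulated data. Alternatives covered background correction, scaling, floor, filters, time as a block, an intensity trend, no moderation, the dimmer Psmb10 probe and leaving out each array. Tables used Python 3.11.15 with pandas 2.3.3 and numpy 2.4.6, figures matplotlib 3.10.9. Genes were named through the platform's symbols (13793 probes had 1, 8730 none). All genes of the set, the standard subunits, up to 4 genes of each list with the smallest p between the strains, the neighbours of Psmb8 and the 3 nearest profiles were eligible to be named, and Pomp was chosen after its value was seen. The genes, picked by symbol, and the lists were chosen with earlier results of these data known. Endothelial and adipocyte marker lists gave 1 tested gene each, with 0 called between the strains. Probe sequences were not used here.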

Additional observations from a re-analysis of the deposited data

Results flagged for a closer look

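Within each strain, the array farthest from the other 3 was compared with the range of all 4. This was done for each of the 10 genes, in 20 sets of 4 arrays. Chance would single out about 1 in 20 if the 4 arrays were alike, but they differ in treatment and time. An array stood apart once. In LEW, the Psme2 signal of 327 on the LPS array at 48 h lay below the other 3 (364 to 369), with a gap of 0.892 of the range, above Dixon's limit for 4 values. Without that array the strain difference of Psme2 was 0.37 on the log2 scale (adjusted p = 0.119, limma). The call of Psme2 was lost without any of 6 arrays, this one among them, and held without either of the other 2.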

How the results depend on the processing

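The number of genes differing between the strains (6) was 2 without moderation and 3 to 6 when 1 array was left out. Without LPS it was 1, and 3 when time was a block. With LPS it was 5, and 2 without moderation and 2 to 5 when 1 array was left out. Between 48 h and 24 h it was 0, and 1 with no filter on dim probes. Background correction left 5 of the 6 strain calls. With LPS it lost Psme1 and Psme2 and added Psmb9 (adjusted p = 0.0307), which entered the test through the PVG LPS arrays alone. The 8 counts and 80 log2 differences were recomputed under 11 settings, 1 of them for Psmb10 alone, or with 1 array left out, and these log2 differences changed sign, none of them past the threshold. The LPS response of Tap1 was -0.0045 after background correction. That of Psmb8 in PVG was 0.0265 with quantile normalization, 0.0041 after background correction, 0.0270 with neqc and 0.0227 in the second deposited table. The interaction of Pdia3 was 0.0143, 0.0130 and 0.0166 with quantile normalization, neqc and the second table. The LPS response of Psmb10 in PVG was -0.0525 by the dimmer probe.

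With 1 array left out, the range of the strain difference was -0.0343 to 0.232 for Calr with LPS, -0.0368 to 0.271 for Pdia3, -0.187 to 0.428 for Pdia3 without LPS and -0.037 to 0.222 for Psmb10 without LPS. The range of the LPS response was -0.307 to 0.0172 for Psmb10, -0.0125 to 0.145 for Psme1, -0.0564 to 0.0659 for Tap1 and -0.0836 to 0.0424 for Tap2. In LEW it was -0.503 to 0.112 for Pdia3, -0.0219 to 0.103 for Psmb9, -0.161 to 0.0141 for Psme2, -0.197 to 0.0481 for Tap1, -0.18 to 0.0722 for Tap2 and -0.0506 to 0.0907 for Tapbp. In PVG it was -0.223 to 0.418 for Psmb10, -0.264 to 0.243 for Psmb8, -0.036 to 0.204 for Tap1 and -0.0425 to 0.0677 for Tap2. The range of the interaction was -0.314 to 0.301 for Pdia3 and -0.0597 to 0.192 for Tap2, and that of 48 h minus 24 h was -0.127 to 0.0107 for Psme1. The cause was not tested. A signal near the background limits what can be said of Psmb9, and with 2 arrays per group a difference of the size seen with LPS may go uncalled.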
